A study of Homo sapiens with 84 samples.

Results

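The cornified envelope genes are 10 genes of squamous differentiation, found among the 58395 gene rows of each count file by their Ensembl identifiers: SPRR1A, SPRR1B, SPRR2A, SPRR2D, SPRR2E, SPRR3, IVL, TGM1, CNFN and PI3. They were chosen by name after the response to 72 h of high-dose EGF in Kyse30 cells was known, so the values of those libraries are given here as a description, with no p. Expression was measured by 3′ RNA-seq in Kyse30, a cell line from an esophageal squamous cell carcinoma, and FaDu, one from a pharyngeal squamous cell carcinoma. Cells of both lines were kept without serum and were left untreated (0, 6 and 72 h) or received, for 6 or 72 h, the Fc region of immunoglobulin, the extracellular domain of EpCAM fused to Fc (EpEX), EGFlow (1.8 nM EGF), EGFhigh (9 nM EGF) or EGFhigh together with EpEX. Of 84 libraries, all 43 of Kyse30 (13 groups of 3 or 4) and the 20 FaDu libraries numbered replicate 3 or 4 (13 groups of 1 or 2) were used. The labels do not tie the replicates to separate cultures, so the p-values measure the spread between these libraries, which may be technical.

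The cornified envelope is the protein shell that replaces the plasma membrane of a keratinocyte at the end of its differentiation. Involucrin (IVL) is laid down early as a scaffold, and small proline-rich proteins (SPRR) are joined to it as short cross-bridging proteins. Transglutaminase 1 (TGM1) forms the covalent bonds between them. Cornifelin (CNFN) is a further envelope component, and elafin (PI3) is an elastase inhibitor with repeats that transglutaminases use as a substrate. The SPRR genes and IVL lie side by side in the epidermal differentiation complex, and in the lining of the esophagus several of them, SPRR3 among them, are abundant above the basal layer. EGF receptor signaling reaches many genes through the AP-1 transcription factors.

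In the annotation used here (GENCODE 29, GRCh38), 7 of the members fall within 197.6 kb of chromosome 1, from base 152908545 to base 153106184. The others were TGM1 (ENSG00000092295) at chr14:24249114-24264432, CNFN (ENSG00000105427) at chr19:42387019-42390287 and PI3 (ENSG00000124102) at chr20:45174876-45176544. RefSeq promoters (GRCh38.p14, 250 bases before to 50 bases after the start) were available for 6 of the 10. Those of the 3 SPRR genes with the highest counts are printed here beside that of CNFN. From 6 to 72 h in control cells of Kyse30, CNFN values rose where those of SPRR1B fell. SPRR2A and SPRR3 had no called change over that time. Capitals mark the AP-1 letters TGANTCA, which read the same on both strands, and the TATA letters TATAAA, searched on both strands. SPRR1B was read from chr1:153030953-153031252 on the plus strand, SPRR2A from chr1:153057463-153057762 on the minus strand, SPRR3 from chr1:153001499-153001798 on the plus strand and CNFN from chr19:42390248-42390547 on the minus strand.
SPRR1B: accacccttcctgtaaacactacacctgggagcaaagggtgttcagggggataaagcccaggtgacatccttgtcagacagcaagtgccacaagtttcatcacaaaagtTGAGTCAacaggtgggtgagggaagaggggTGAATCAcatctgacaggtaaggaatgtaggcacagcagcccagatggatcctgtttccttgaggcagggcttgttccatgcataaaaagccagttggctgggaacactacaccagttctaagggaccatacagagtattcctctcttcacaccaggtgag
SPRR2A: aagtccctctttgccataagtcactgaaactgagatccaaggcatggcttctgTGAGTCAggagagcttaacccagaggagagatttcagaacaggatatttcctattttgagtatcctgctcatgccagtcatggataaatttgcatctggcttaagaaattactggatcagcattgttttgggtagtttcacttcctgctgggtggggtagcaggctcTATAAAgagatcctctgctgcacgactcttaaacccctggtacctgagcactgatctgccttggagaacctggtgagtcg
SPRR3: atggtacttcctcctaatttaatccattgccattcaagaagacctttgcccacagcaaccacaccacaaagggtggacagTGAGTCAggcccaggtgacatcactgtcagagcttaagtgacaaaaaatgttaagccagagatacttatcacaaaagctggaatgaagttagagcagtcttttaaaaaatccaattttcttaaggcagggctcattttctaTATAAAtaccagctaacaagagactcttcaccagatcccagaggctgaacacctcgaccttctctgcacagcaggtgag
CNFN: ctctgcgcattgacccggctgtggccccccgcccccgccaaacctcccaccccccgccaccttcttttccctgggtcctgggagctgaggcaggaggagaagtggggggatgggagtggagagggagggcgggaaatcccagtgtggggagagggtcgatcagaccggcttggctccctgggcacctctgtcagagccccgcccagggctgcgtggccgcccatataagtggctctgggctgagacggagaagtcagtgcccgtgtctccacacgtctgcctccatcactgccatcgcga

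An AP-1 match stood in 5 of the 6 promoters (SPRR1A, SPRR1B, SPRR2A, SPRR3 and IVL), against 7.71% of all 35116 promoters of this length. SPRR1B held 2 such matches, beginning at positions -141 and -111, counted so that the RefSeq start is 1 and the base before it is -1. These starts are not those of the GENCODE 29 models. For SPRR1A the window (chr1:152983831-152984130) ends before the GENCODE 29 model begins, at base 152985231. In the others the match began at position -108 (SPRR1A), -197 (SPRR2A), -170 (SPRR3) and -123 (IVL). The TATA letters stood in 4 of the 6 (SPRR1A, SPRR2A, SPRR3 and IVL), from position -29 or -30, against 11.5% of all promoters, and no AP-1 match overlapped one. Neither string of letters occurs in the CNFN window. A match describes the letters and not binding, which was not measured.

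Total counts on genes were 1944948 to 11759799 per library in Kyse30 (median 6304338) and 6217938 to 12442349 in FaDu replicates 3 and 4 (median 9259762), so that 3 counts, taken as the floor, amounted to 0.255 to 1.54 and 0.241 to 0.483 CPM (reads scaled to a common library size of 1000000). These floors cover counting error only. Reads matching more than 1 place were not counted, and made up 24.6 to 43.6% of each Kyse30 library and 41 to 51.3% of each FaDu library. The SPRR2 genes are near-identical, so counts of SPRR2A, SPRR2D and SPRR2E may miss or misplace reads. The GENCODE 29 model of SPRR1A holds 270 bases and none beyond the stop codon, while the models of the other members extend 134 to 404 bases beyond it, and 3′ reads of SPRR1A outside its model would not have been counted if the authors used such an annotation. Of 7 markers of squamous epithelium (KRT5, KRT14, KRT17, TP63, EPCAM, CDH1, DSG3), 6 in Kyse30 (not KRT14) and 7 in FaDu had a median over 1 CPM. None of 5 leukocyte markers did, with a summed level of 0 to 3.93 CPM in Kyse30 and 0 to 1.25 CPM in FaDu. Of 6 fibroblast markers 2 did in each line (summed level 9.9 to 44.7 CPM in Kyse30 and 6.98 to 15.3 CPM in FaDu), and of 3 endothelial markers 1 did in each (0 to 7.44 and 0.397 to 9.52 CPM). Their part in the results was not tested. The 21 FaDu libraries of replicates 1 and 2 stood apart: there SPRR3 had a median of 0.143 CPM against 8.34 CPM in replicates 3 and 4 of the same normalization, and single libraries reached 87 CPM for IVL and 930 CPM for PI3. In bulk libraries, fewer cells that express a gene and less RNA per cell cannot be told apart.

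Detection set which members could be tested. In Kyse30, 8 of 10 members passed the expression filter (15350 genes tested): TGM1 had no more than 1.71 CPM in any library, and PI3 was at 0 in 40 of 43 libraries, with 7 reads in all. Outside the EGFhigh 72 h libraries, SPRR2E reached at most 1.78 CPM and SPRR2D at most 2.72 CPM. They had 3 counts or fewer in 32 and 30 of 43 libraries. That these 2 passed the filter thus rests largely on the libraries after which the members were chosen. Both are kept in the counts out of 8. In FaDu, 9 passed (16022 genes tested), all but SPRR1A, which reached at most 0.928 CPM. A change was called at an adjusted p of at most 0.05 in edgeR's quasi-likelihood test, adjusted over all genes tested, with an absolute log2 fold change (log2FC) over 0.5.

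**Figure D1:**
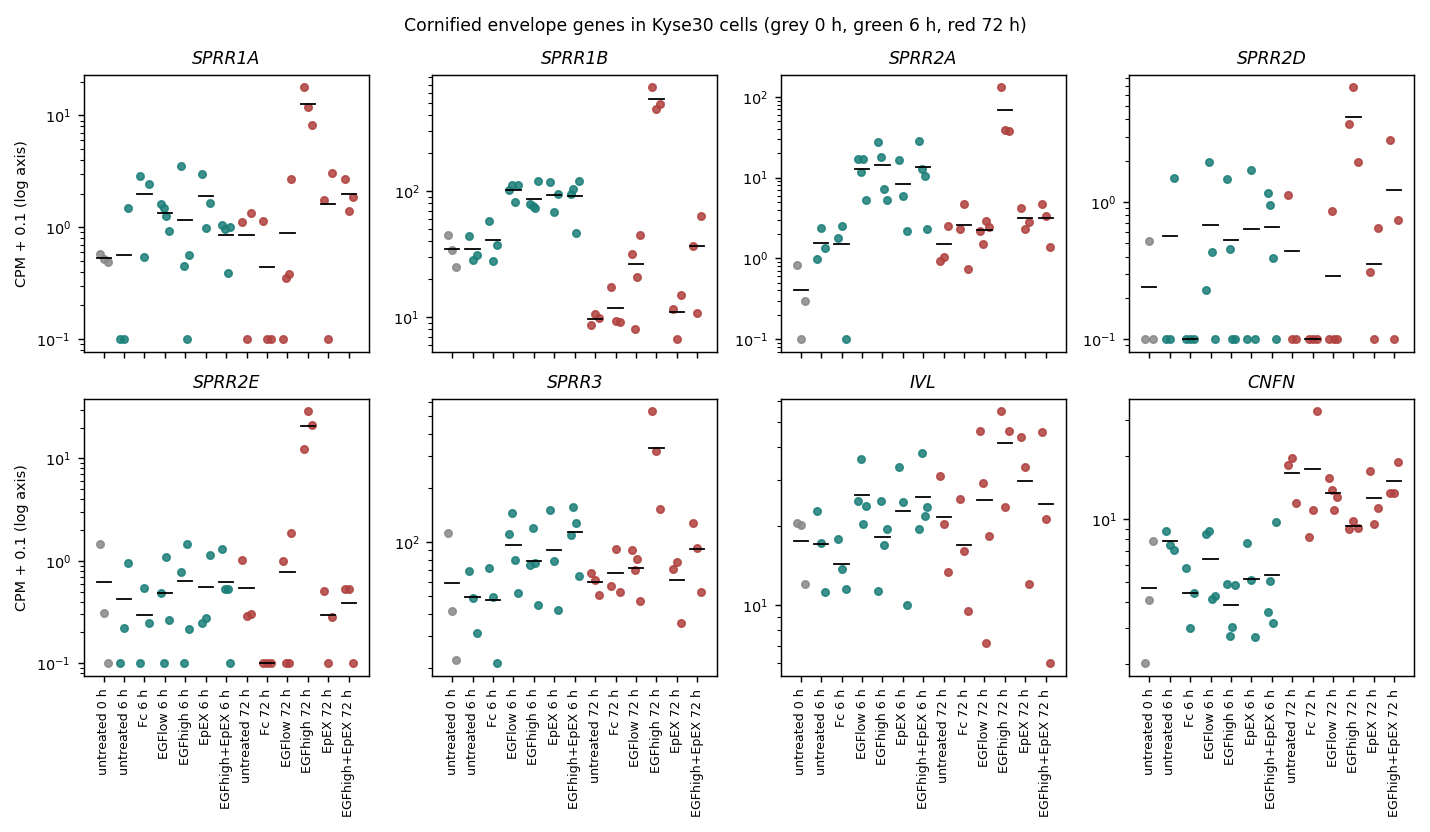
CPM plus 0.1 on a log axis for the 8 members that passed the filter, in each Kyse30 library (points) by treatment and time, with the group mean as a bar. In SPRR1B the 3 EGFhigh 72 h libraries lie at 446 to 668 CPM above all 40 others (6.59 to 121 CPM), and CNFN has its higher values at 72 h in every treatment.

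The EGFhigh 72 h libraries of Kyse30, on which the members were selected, held the highest value of all 6 SPRR genes, and for 4 of them (SPRR1A, SPRR1B, SPRR2A and SPRR2E) all 3 libraries lay above the 40 others. SPRR1B (ENSG00000169469), a cross-bridging protein, stood at 668, 446 and 495 CPM there and at 8.56, 10.5 and 9.82 CPM in untreated cells at 72 h, a log2FC of 5.81 ± 0.50 (SE). SPRR2A (ENSG00000241794), from the multigene SPRR2 group of bridging proteins, stood at 132, 39.2 and 37.4 CPM against 0.837, 0.954 and 2.45 CPM (log2FC 5.67 ± 0.88), with replicate 1 far above the other two. SPRR2E (ENSG00000203785) stood at 12.2, 28.7 and 21.3 CPM against 0.93, 0.191 and 0.204 CPM (log2FC 5.38 ± 1.46). Unlike in SPRR2A, replicate 1 was here the lowest of the 3. SPRR1A (ENSG00000169474) had 17.8, 11.8 and 8.14 CPM, against at most 3.4 CPM in the 40 other Kyse30 libraries. SPRR2D (ENSG00000163216) had 3.62, 6.78 and 1.86 CPM, where 2 of the other libraries exceeded the lowest of these, the higher at 2.72 CPM, and 23 of 43 libraries were at 0. SPRR3 (ENSG00000163209), the SPRR protein of the esophageal lining, had 534, 321 and 152 CPM against 67.6, 61.6 and 50.9 CPM (log2FC 2.48 ± 0.50). Its lowest EGFhigh value fell within the range of the other libraries, which reached 156 CPM.

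The remaining members differed from this. IVL (ENSG00000163207) had 54.6, 23.5 and 46.1 CPM at EGFhigh 72 h and 31, 20.2 and 13.3 CPM in untreated cells, and these groups overlapped. CNFN had 8.86, 9.63 and 8.99 CPM at EGFhigh 72 h, below all 3 untreated libraries (18, 19.5 and 11.9 CPM), with a log2FC of -0.85 ± 0.47. These 2 groups of libraries did not overlap for 22.9% of all tested genes. TGM1 reached at most 0.178 CPM and PI3 was at 0 in all 3 EGFhigh libraries. Of the 8 members that passed the filter, 4 met the thresholds in this contrast (SPRR1B, SPRR2A, SPRR2E and SPRR3), where 6.2% of all tested genes did. Against EGFlow at 72 h, the number was also 4 (background 3.73%), and from EGFhigh to EGFhigh+EpEX at 72 h it was 4, all lower with EpEX (background 3.58%). In the last contrast only 2 members met the thresholds without EGFhigh+EpEX replicate 2, or without replicate 3. Nothing is read from these counts, since the members were picked from the same libraries.

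At 6 h, SPRR2A and SPRR1B rose with EGFlow in Kyse30. SPRR2A rose from 0.869, 2.28 and 1.26 CPM in untreated cells to 16.7, 11.7, 16.7 and 5.15 CPM, with no overlap (log2FC 3.05 ± 0.78, adjusted p = 0.0334). SPRR1B rose from 44, 28.5 and 30.9 CPM to 102, 111, 81.3 and 111 CPM, also with no overlap (log2FC 1.56 ± 0.40, adjusted p = 0.0343). These were 2 of the 8 members tested, where 1.5% of all genes were called. The groups did not overlap for 2 of the 8 members and for 13.7% of all genes. Both calls rest on the full set of libraries. They stayed past the threshold without EGFlow replicate 2. SPRR1B lost the call without EGFlow replicate 1 (adjusted p = 0.0779) or 4 (0.071), or without untreated replicate 1 (0.0672), 3 (0.146) or 4 (0.174), and SPRR2A without EGFlow replicate 1 (0.0947) or 3 (0.0814), or without untreated replicate 1 (0.152), 3 (0.0736) or 4 (0.174). The log2FC stayed between 1.44 and 1.78 for SPRR1B and between 2.81 and 3.52 for SPRR2A in those fits.

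**Figure D2:**
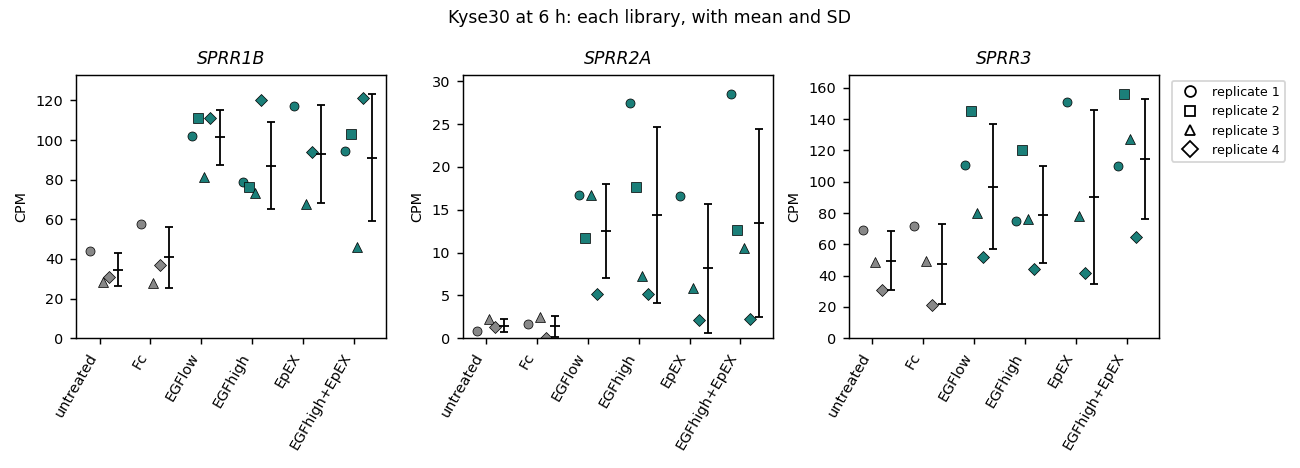
CPM of SPRR1B, SPRR2A and SPRR3 in each Kyse30 library at 6 h (symbols show the replicate number, grey for untreated and Fc), with the group mean and SD at the right of each group. All SPRR1B values with EGFlow (81.3 to 111 CPM) lie above all untreated ones (28.5 to 44 CPM), and replicate 4 is the lowest SPRR3 library of every group.

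EGFhigh at 6 h gave values in the same range. SPRR2A stood at 27.5, 17.7, 7.22 and 5.16 CPM, all above the untreated libraries, and was called (log2FC 3.22 ± 0.79, adjusted p = 0.0165), 1 member of 8 against 2.55% of all genes. The call was lost without EGFhigh replicate 1 (adjusted p = 0.0591), untreated replicate 1 (0.0983) or untreated replicate 4 (0.104). SPRR1B had 78.9, 76.2, 73.3 and 120 CPM, likewise with no overlap with untreated cells, but its log2FC of 1.34 ± 0.40 was not called (adjusted p = 0.0578). It was called by DESeq2 (adjusted p = 0.0186), where 673 genes in all were called against 391 by edgeR. It was also called without the filter on low counts (1.17e-05) and with only the groups compared (0.00414). The same held with untreated and Fc libraries together as control (0.0113) and with the replicate number as a term (0.0118). The number of all genes called by edgeR under these settings is not given here. These calls are therefore not read as particular to SPRR1B. CNFN had 4.76, 2.63, 2.93 and 4.7 CPM with EGFhigh, below the 8.69, 7.43 and 7.01 CPM of untreated cells (log2FC -1.04 ± 0.46, adjusted p = 0.248). The groups did not overlap for 3 of the 8 members (SPRR1B, SPRR2A and CNFN) and for 15.3% of all genes. No difference between EGFhigh and EGFlow at 6 h was called for any member: 0 of 8 members and 0% of all genes were called by edgeR, 0 members had an unadjusted p under 0.05, and DESeq2 called 0. The 95% interval of that difference ran from -0.94 to 0.50 for SPRR1B and from -1.08 to 1.42 for SPRR2A on the log2 scale, which leaves room for differences of either sign.

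EpEX was compared with Fc. With EpEX alone at 6 h, SPRR1B had 117, 67.6 and 94 CPM against 57.9, 27.9 and 37.1 CPM with Fc, with no overlap (log2FC 1.18 ± 0.42, adjusted p = 0.327). SPRR2A had 16.6, 5.85 and 2.08 CPM against 1.71, 2.45 and 0 CPM, and the groups overlapped (log2FC 2.70 ± 0.84, adjusted p = 0.224). edgeR called 0 of 8 members here and 0.0261% of all genes. The groups did not overlap for 1 of the 8 members and for 13.2% of all genes. At an unadjusted p under 0.05 there were 2 members, against 1451 of the 15350 genes tested. DESeq2 called 0 members and 83 genes in all. SPRR2A was called when the untreated and Fc libraries together served as control (adjusted p = 0.0393), and without the filter on low counts both SPRR2A (0.00108) and SPRR1B (0.00468) were. The number of all genes called in those fits is not given here. With EGFhigh+EpEX at 6 h, SPRR2A rose to 28.5, 12.6, 10.5 and 2.22 CPM, although the last library lay within the range of Fc (log2FC 3.33 ± 0.81, adjusted p = 0.0116). This was 1 member of 8, against 4.52% of all genes. The call was lost without EGFhigh+EpEX replicate 1 (adjusted p = 0.0576), Fc replicate 1 (0.0504) or Fc replicate 4 (0.0897), and in a fit of these 2 groups alone (0.0757). SPRR1B had 94.6, 103, 46 and 121 CPM (log2FC 1.15 ± 0.39, adjusted p = 0.0798), and was called without EGFhigh+EpEX replicate 3 (0.043). SPRR3 had 110, 156, 127 and 64.5 CPM against 71.7, 49.3 and 21.1 CPM with Fc (log2FC 1.27 ± 0.46, adjusted p = 0.104). In this comparison SPRR1B and SPRR3 were both called without the filter on low counts (adjusted p = 0.000286 and 2.86e-05). The same held with untreated and Fc libraries together as control (0.0079 and 0.0272) and with the replicate number as a term (0.0195 and 0.00118). For these settings, too, the number of all genes called is not given here. The added calls are therefore not read as particular to the members. DESeq2 also called SPRR1B (0.0392), among 1112 genes in all against 694 by edgeR. EGFhigh+EpEX and EpEX share the Fc libraries, and EGFlow and EGFhigh the untreated ones, so the 4 responses at 6 h are not independent.

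**Figure D3:**
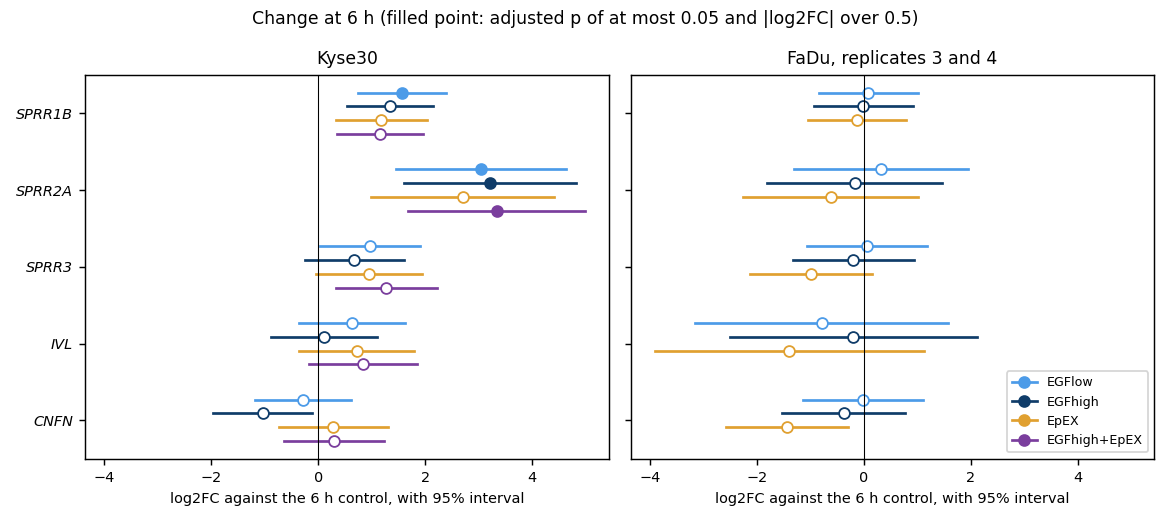
log2FC at 6 h against the control of the same line (untreated for EGF, Fc for EpEX) with its 95% interval, for 5 members in Kyse30 (left) and in FaDu replicates 3 and 4 (right), with filled points for called changes. The 4 called changes are SPRR1B with EGFlow and SPRR2A with EGFlow, EGFhigh and EGFhigh+EpEX in Kyse30, and no FaDu point is filled.

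In the main edgeR fit, with a mean per group, no member other than SPRR1B and SPRR2A was called in the 4 comparisons with controls at 6 h. Under other settings that kept the filter, SPRR3 was called with EGFhigh+EpEX, as given above. SPRR3 had 111, 145, 79.9 and 51.8 CPM with EGFlow against 69, 48.9 and 31.1 CPM in untreated cells (log2FC 0.97 ± 0.46, adjusted p = 0.336), and was called without the filter (0.00597). The number of all genes called in that fit is not given here. IVL had 20.2 to 36 CPM with EGFlow and 11.1 to 22.8 CPM in untreated cells (log2FC 0.63 ± 0.49, adjusted p = 0.642). SPRR1A, SPRR2D and SPRR2E had group means of 0.198 to 1.87 CPM at 6 h, other than SPRR2D with Fc, where all 3 libraries were at 0, and no fold is given against that group. The replicate number went along with 3 members at 6 h. Replicate 4 held the lowest SPRR3 value in all 6 groups, and the lowest SPRR2A value in every group but untreated cells, while replicate 3 held the lowest SPRR1B value in all 6. 

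At 72 h, EGFlow, EpEX and EGFhigh+EpEX gave no called member with the filter on low counts. Without it, SPRR1B was called with EGFlow (adjusted p = 0.000259) and with EGFhigh+EpEX (3.03e-05), at about the same log2FC (1.46 and 1.61). The number of all genes called without the filter is not given here, so these calls are not read as particular to SPRR1B. With EGFlow, SPRR1B had 31.7, 8, 20.6 and 44.5 CPM against 8.56, 10.5 and 9.82 CPM in untreated cells (log2FC 1.46 ± 0.42, unadjusted p = 0.00131, adjusted p = 1), and 1 library lay below all controls. These controls are those of the EGFhigh comparison after which the members were chosen. That choice favors low values in them, so the p-values with EGFlow are no independent test. With EGFhigh+EpEX, SPRR1B had 36.8, 10.7 and 63 CPM against 17.2, 9.17 and 9.03 CPM with Fc (log2FC 1.60 ± 0.44, unadjusted p = 0.000718, adjusted p = 1). With EpEX alone it had 11.4, 6.59 and 14.8 CPM. SPRR2A was between 1.27 and 4.58 CPM with EGFhigh+EpEX and between 0.645 and 4.59 CPM with Fc. In each of these 3 comparisons edgeR called 0 of 8 members and 0% of all genes. At an unadjusted p under 0.05 there were 1 member with EGFlow (SPRR1B), 0 with EpEX and 2 with EGFhigh+EpEX (SPRR1B and SPRR2D, the latter against Fc libraries all at 0), and DESeq2 called 0 members in each. Over all genes, 439, 554 and 601 had an unadjusted p under 0.05, and DESeq2 called 0, 2 and 0.

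SPRR1B and CNFN changed in opposite directions over time in Kyse30 cells that received neither EGF nor EpEX. From 6 to 72 h, SPRR1B fell from 44, 28.5 and 30.9 CPM to 8.56, 10.5 and 9.82 CPM in untreated cells (log2FC -1.84 ± 0.44, adjusted p = 0.0196), and from 57.9, 27.9 and 37.1 CPM to 17.2, 9.17 and 9.03 CPM with Fc (log2FC -1.75 ± 0.44, adjusted p = 0.024). The libraries of 6 and 72 h did not overlap in either control. The untreated 72 h libraries are also the controls of the EGFhigh comparison after which the members were chosen. That choice favors low values in them, so the p for untreated cells is no independent test. The Fc libraries are not part of that comparison. CNFN rose with Fc from 5.74, 2.9 and 4.29 CPM to 8.13, 11 and 32.9 CPM (log2FC 1.97 ± 0.49, adjusted p = 0.0237). In untreated cells it had 8.69, 7.43 and 7.01 CPM at 6 h and 18, 19.5 and 11.9 CPM at 72 h, again without overlap but not called (log2FC 1.10 ± 0.47, adjusted p = 0.286). Called were thus 2 of 8 members with Fc (2.25% of all genes) and 1 of 8 in untreated cells (1.55%). The times did not overlap for 2 of 8 members in each control, against 17.8% of all genes with Fc and 20.7% in untreated cells. With Fc, the CNFN call was lost without Fc 72 h replicate 3 (log2FC 1.13, adjusted p = 0.284) or without Fc 6 h replicate 1 (0.0584), 3 (0.108) or 4 (0.0715), and the SPRR1B call without Fc 6 h replicate 1 (0.163) or Fc 72 h replicate 2 (0.0936) or 3 (0.104). In a fit of the Fc groups alone neither was called (0.157 for CNFN and 0.0544 for SPRR1B). In untreated cells the SPRR1B call was lost without 6 h replicate 1 (0.0899) or 72 h replicate 1 (0.108), 2 (0.0638) or 3 (0.0684), with a log2FC of -1.65 to -1.93. Between 0 and 6 h, edgeR called 0 of 8 members and 0% of all genes (355 at an unadjusted p under 0.05, of them 0 members, and 0 by DESeq2), and SPRR1B had means of 34.6 ± 9.74 and 34.5 ± 8.32 CPM (SD, n = 3 each).

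**Figure D4:**
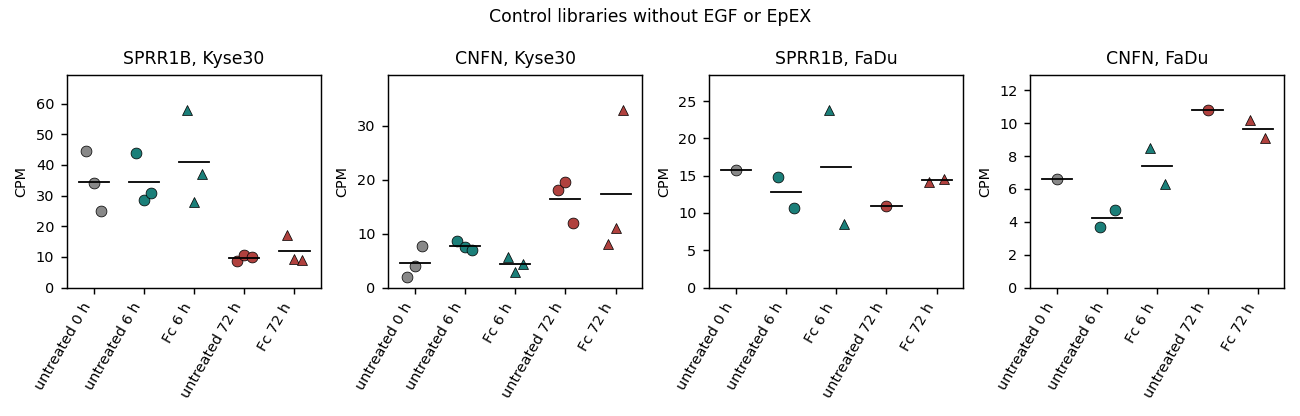
CPM of SPRR1B and CNFN in untreated (circles) and Fc (triangles) libraries of Kyse30 and of FaDu replicates 3 and 4 at 0, 6 and 72 h, with the mean as a bar. In Kyse30, SPRR1B is lower at 72 h (8.56 to 17.2 CPM) than at 6 h (27.9 to 57.9 CPM), while CNFN reaches 32.9 CPM in 1 Fc library at 72 h.

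The correlations among the SPRR genes were higher over all 43 Kyse30 libraries than over the 40 without EGFhigh 72 h. The members were selected on those 3 EGFhigh libraries. On the log2 CPM scale, Pearson's r over the 15 pairs of SPRR genes was 0.386 to 0.789 (median 0.55) with them. Without them, a setting added after the data were seen, it was -0.043 to 0.685 (median 0.22) over 40 libraries, and lower in all 15 pairs. SPRR1A, SPRR2D and SPRR2E had 3 counts or fewer in 16, 30 and 32 of 43 libraries. Counting error thus weighs on the r of their pairs. SPRR2D and SPRR2E also passed the filter largely through the EGFhigh 72 h libraries. A lower r without those libraries was therefore likely beforehand, and nothing is read from it. The pair of SPRR2A and SPRR3 had the highest r both with (0.789) and without (0.685) those libraries, while SPRR1A and SPRR3 had 0.386 and -0.043. SPRR1B and CNFN had -0.416 and -0.597. With the mean of the other members, SPRR2A had an r of 0.722 over 43 and 0.59 over 40 libraries, SPRR2E 0.679 and 0.179, and CNFN -0.103 and -0.301. The points share their libraries and depth, and these values describe them without a test.

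Genes outside the list with the most similar pattern were taken from 10237 genes of at least 5 CPM, by their correlation with the mean of the standardised members over the 43 libraries. Among the 10 highest were IL1RN (the interleukin-1 receptor antagonist, r = 0.835), S100P (a calcium-binding protein, 0.813), LSR (a tight junction component, 0.803), SH3BGRL3 (0.778), NPEPPS (an aminopeptidase, 0.773), KRT16 (a keratin of activated keratinocytes, 0.766), PYGB (a glycogen phosphorylase, 0.761), CAMK2N1 (an inhibitor of calmodulin-dependent kinase, 0.751) and KLK5 (a serine protease of the stratum corneum, 0.738). Without the EGFhigh 72 h libraries the r of these genes was 0.421 (KRT16) to 0.62 (IL1RN). IL1RN had a mean of 93.9 ± 45.9 CPM (SD, n = 3) at EGFhigh 72 h, 8.29 ± 2.77 CPM in untreated cells at 72 h and 14.4 ± 11.2 CPM with EGFhigh+EpEX. KRT16 had 266 ± 123, 15.8 ± 9.69 and 40.9 ± 23.5 CPM in the same groups.

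Other genes of the cornification program were followed through 6 lists, drawn up with earlier results of these data known, of envelope precursors, plakins and corneodesmosome proteins, crosslinking and lipid enzymes, proteases and their inhibitors, suprabasal keratins with companions, and differentiation regulators. Of their 99 genes, 51 passed the filter in Kyse30 and 62 in FaDu. In Kyse30, 0 of 51 were called with EGFlow at 6 h, and 1 with EGFhigh at 6 h, GRHL2, a regulator of epithelial junction genes, which fell from 62.5 ± 9.34 to 29.9 ± 2.39 CPM (log2FC -1.06 ± 0.25, adjusted p = 0.0116). With EGFhigh+EpEX at 6 h, 3 rose and 2 fell. CST6, a cysteine protease inhibitor that restrains crosslinking, rose from 77.9 ± 20.2 to 208 ± 104 CPM (log2FC 1.42 ± 0.42, adjusted p = 0.0383). HES1, a Notch target, fell from 860 ± 225 to 281 ± 191 CPM (log2FC -1.61 ± 0.47, adjusted p = 0.0377), and GRHL2 fell as well (log2FC -1.03 ± 0.24, adjusted p = 0.00922). With Fc from 6 to 72 h, the keratin KRT4 rose from a mean of 23.8 to 251 CPM (log2FC 3.40 ± 0.95, adjusted p = 0.0443), 1 of 51. In the other tested Kyse30 comparisons, 0 of 51 were called. At EGFhigh 72 h against untreated cells, given as a description, 6 of the 51 met the thresholds, all of them higher, the farthest being the proteases KLK7 and KLK5 and the sulfotransferase SULT2B1. EGFhigh stood above EGFlow at 72 h for EHF, an epithelial transcription factor, and JUP, a junction protein, and JUP was lower again with EGFhigh+EpEX.

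In FaDu cells no member was called under any treatment with replicates. SPRR1B had 14.8 and 10.7 CPM in untreated cells at 6 h, 14.3 and 12.7 CPM with EGFlow and 14.1 and 11.2 CPM with EGFhigh, a log2FC of 0.08 ± 0.39 and -0.01 ± 0.39. SPRR2A had 3.13 and 1.78 CPM untreated and 3.24 and 1.1 CPM with EGFhigh. Fc replicate 3 at 6 h was the highest FaDu library for SPRR1B (23.8 CPM), SPRR3 (19.4 CPM) and PI3 (34.8 CPM), and its partner stood at 8.51, 5.77 and 8.71 CPM. SPRR1B had 11.9 and 17.3 CPM with EpEX at 6 h. edgeR called 0 of 9 members with EGFlow at 6 h (3.45% of all genes), EGFhigh at 6 h (3.06%), EpEX at 6 h (3.5%), EGFhigh+EpEX at 72 h (0.818%) and from 6 to 72 h with Fc (2.88%). DESeq2 called 0 members in all 5, and 207 to 755 genes in all. At an unadjusted p under 0.05 there was 1 member, CNFN, with EpEX at 6 h. With EGFhigh+EpEX at 72 h there was again 1, CNFN, and in the other comparisons 0. Of all 16022 genes, 2225 with EpEX at 6 h and 1086 with EGFhigh+EpEX at 72 h were under 0.05. CNFN had 1.33 and 3.98 CPM with EpEX against 8.46 and 6.28 CPM with Fc at 6 h (log2FC -1.44 ± 0.48, adjusted p = 0.136). At 72 h it had 5.27 and 4.39 CPM with EGFhigh+EpEX against 10.2 and 9.1 CPM with Fc (log2FC -1.002 ± 0.46, adjusted p = 0.714). In the single libraries of the other 72 h groups, CNFN had 10.8 CPM untreated, 10.4 CPM with EpEX, 2.54 CPM with EGFhigh and 3.61 CPM with EGFlow. These have no replicate check within replicates 3 and 4. In replicates 1 and 2, scaled with all FaDu libraries, CNFN had 22 and 3.29 CPM with EGFhigh and 11 and 2.44 CPM untreated. In the single EGFhigh and untreated libraries, SPRR1B had 10.9 and 10.9 CPM, SPRR2A 2.78 and 1.96 CPM, and SPRR3 7.77 and 7.21 CPM. With the scale of all FaDu libraries, replicates 1 and 2 included, 0 members were called in these 5 comparisons as well.

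Other genes of the cornification lists were called in FaDu. With EGFlow, EGFhigh and EpEX at 6 h, 5, 6 and 5 of 62 were called. CST6 rose in each (log2FC 3.58 ± 0.52, 3.64 ± 0.52 and 3.39 ± 0.50, adjusted p = 0.000466, 0.000466 and 0.000528). The epidermal lipoxygenase ALOXE3 rose as well (log2FC 5.67 ± 0.89, 4.19 ± 0.92 and 2.67 ± 0.72, adjusted p = 0.000937, 0.0142 and 0.0469). It had 6.64, 2.38 and 3.99 CPM with these treatments. Its controls were near the floor, at 0.118 CPM untreated and 0.615 CPM with Fc, so the size of its folds is uncertain. The epithelial transcription factor ELF3 fell in each (log2FC -2.07, -1.81 and -1.98, adjusted p = 0.00013, 0.000537 and 0.000232). At 72 h with EGFhigh+EpEX, the protease KLK6 rose from 22.9 to 101 CPM (log2FC 2.14 ± 0.21, adjusted p = 0.000153) and sciellin (SCEL), an envelope-associated protein, from 4.37 to 17.1 CPM (log2FC 1.97 ± 0.44, adjusted p = 0.0438), while the transcription factor EHF fell from 14.5 to 1.95 CPM (log2FC -2.87 ± 0.62, adjusted p = 0.0355). From 6 to 72 h with Fc, 3 of 62 fell (ELF3, KLK6 and PPL).

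The 2 lines differed in level. In untreated cells at 6 h, in a fit over both lines, SPRR3 was lower in FaDu, with a mean of 8.78 ± 0.49 CPM (SD, n = 2) against 49.4 ± 18.5 CPM in Kyse30 (n = 3), a log2FC of -2.49 ± 0.59 (adjusted p = 0.00102). IVL was lower as well (1.31 ± 1.00 against 16.9 ± 5.70 CPM, log2FC -3.67 ± 0.71, adjusted p = 6.69e-05), and so was SPRR1B (13.01 ± 3.11 against 34.3 ± 8.05 CPM, log2FC -1.40 ± 0.48, adjusted p = 0.027). PI3 was higher in FaDu, at 17.1 ± 5.02 CPM, where 2 of the 3 untreated 6 h Kyse30 libraries were at 0 and the third had 0.48 CPM (adjusted p = 1.22e-06). These were 4 of 10 members, against 22.4% of all 19634 genes. The SPRR1B call was lost without FaDu replicate 3 (adjusted p = 0.082) or 4 (0.222) or Kyse30 replicate 1 (0.0949). SPRR2E was not called (log2FC 3.10 ± 1.25, adjusted p = 0.0661) but was without Kyse30 replicate 4 (0.0263), as was SPRR2D (0.0468). With FaDu replicates 1 and 2 included, 1 member was called, PI3. Of the list genes, 10 were higher and 12 lower in FaDu of 71 tested, among them the suprabasal keratin KRT1 (10.6 ± 0.34 against 0.0573 ± 0.0992 CPM) and the protease inhibitor CSTA (195.6 ± 16.9 against 2.56 ± 1.40 CPM, adjusted p = 7.24e-12). KRTDAP, a keratinocyte differentiation-associated protein, had 9.73 ± 0.347 CPM in FaDu and was at 0 in all 3 Kyse30 libraries. Any batch between them cannot be told apart from the line.

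**Figure D5:**
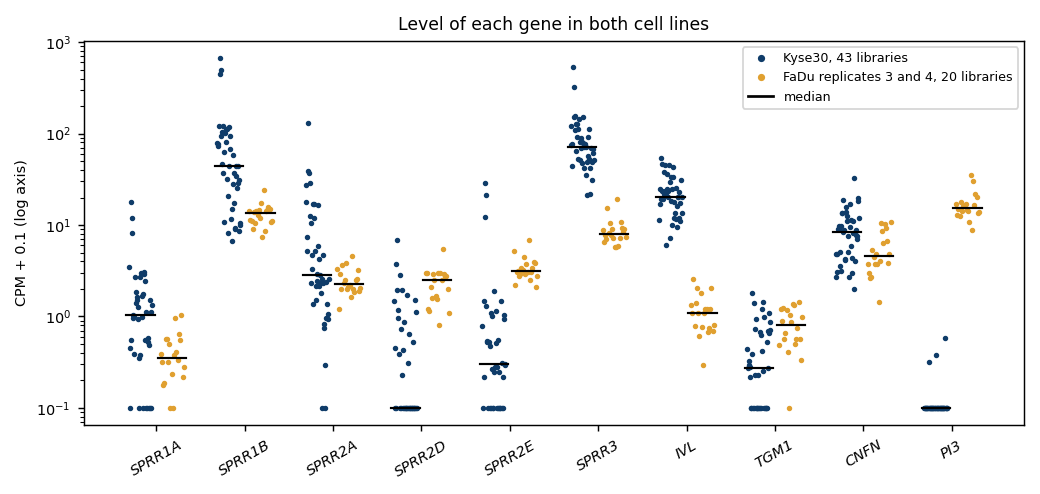
CPM plus 0.1 on a log axis for all 10 members in the 43 Kyse30 and the 20 FaDu libraries of replicates 3 and 4, each line on its own scale of library size, with the median as a bar. PI3 lies at 8.71 to 34.8 CPM in FaDu and at 0 to 0.48 CPM in Kyse30, and IVL at 0.194 to 2.46 CPM in FaDu and 5.89 to 54.6 CPM in Kyse30.

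The response to EGFhigh at 6 h was compared between the lines by an interaction term. For SPRR2A the difference of FaDu minus Kyse30 was -3.41 ± 1.17 on the log2 scale (unadjusted p = 0.00521, adjusted p = 0.736), with a 95% interval of -5.79 to -1.04, and for SPRR1B it was -1.39 ± 0.64 (unadjusted p = 0.0339, adjusted p = 1). edgeR called 0 of 10 members, where 0.0611% of all genes were called (12 genes). At an unadjusted p under 0.05 there were 2 members, against 965 of all 19634 genes. DESeq2 called 0 members and 37 genes in all. DESeq2 gave no adjusted p for SPRR2A. Without the filter on low counts, SPRR2A was called in edgeR (-3.39, adjusted p = 0.0401). The number of all genes called in that fit is not given here.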

How the data were processed

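RNA of Kyse30 and FaDu cells was sequenced by the authors with a 3′ library kit (QuantSeq 3′ mRNA-Seq FWD). The authors deposited 1 table of raw counts per library, whole numbers of reads per Ensembl gene with htseq-count's tallies. Submitters' processing notes name STAR, HTSeq, GRCh38 and hg38, and versions, annotation, strand setting and use of molecular identifiers are not given in the sources used here. Tallies of reads on no gene were left out (5.3 to 15.3% of reads on no feature in Kyse30, 5.76 to 10.1% in FaDu replicates 3 and 4). Of 58395 gene identifiers, 58275 matched GENCODE 29.

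Groups follow the labels. Counts were filtered with filterByExpr (minimum count 10, minimum total 15) and tested with edgeR 4.0.16 in R 4.3.3 (TMM, quasi-likelihood F test, 1 fit per line with a mean per group, 1 over both lines), adjusted by Benjamini-Hochberg over all genes. Residual degrees of freedom were 30 (Kyse30), 7 (FaDu) and 37 (both). Controls were untreated cells for EGF and Fc-treated cells for EpEX. CPM are counts over TMM-scaled library sizes within each set. Correlations used log2 CPM with a prior count of 2. Alternatives were DESeq2 1.42.0, RLE size factors, no filter, only the groups compared, the replicate number as a block, other controls, all FaDu replicates, and each library left out in turn. For the last, dispersion trend and genes of the full fit were kept and the quasi-likelihood spread was estimated again (68 fits).

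The members and lists were chosen with earlier results of these data known, and so was the use of FaDu replicates 3 and 4. All 10 members were named, with the 3 farthest called list genes per comparison whose groups did not overlap, and the 10 genes most alike, of which 1 is not reported here. Promoters are RefSeq's.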

Additional observations from a re-analysis of the deposited data

Results flagged for a closer look

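In groups of 4 libraries, a single library stood far from the other 3 in 6 of 47 groups of member values examined. Chance gives about 1 in 20 for independent, normally distributed values. The members share libraries, and the FaDu groups mix replicates 1 and 2 with 3 and 4, so no excess over chance is read from this. In Kyse30 with EGFhigh at 6 h, SPRR1A had 3.4 CPM in replicate 1 against 0 to 0.459 CPM in the others, and SPRR1B had 120 CPM in replicate 4 against 73.3 to 78.9 CPM. In FaDu over all replicates (scaled together), PI3 in untreated cells at 6 h had 930 CPM in replicate 1 against 13.9 to 106 CPM. PI3 with Fc at 6 h had 35.9 CPM in replicate 3 against 5.66 to 10.2 CPM. CNFN with EGFhigh at 6 h had 34.6 CPM in replicate 1 against 2.33 to 3.72 CPM, and IVL with Fc at 6 h had 5.67 CPM in replicate 2 against 0.596 to 1.16 CPM. Of these FaDu values, those of replicates 1 and 2 lie outside the comparisons of the report.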

How the results depend on the processing

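Of 130 counts of called members under another setting with all libraries, 113 stayed within 1.5 times the reported count. Counts that were 0 and stayed 0 are among them. All 275 log2FC values of the single members followed kept their sign. Only members called under at least 1 setting in a tested comparison were followed, so members with weaker changes are left out. With EGFhigh at 6 h in Kyse30, the count of 1 became 2 with DESeq2, without the filter, with only the groups compared and with untreated and Fc libraries together, SPRR1B being the gene added. With EGFhigh+EpEX at 6 h, 1 became 2 with DESeq2, 3 without the filter, 3 with both controls together and 0 with only the groups compared. With EpEX at 6 h, 0 became 2 without the filter and 1 with both controls together. Without the filter, 0 became 1 for EGFlow and for EGFhigh+EpEX at 72 h (SPRR1B, adjusted p = 0.000259 and 3.03e-05) and 1 for the interaction between the lines (SPRR2A, adjusted p = 0.0401). From 6 to 72 h with Fc, 2 became 0 with only the groups compared, and for FaDu against Kyse30 the 4 became 1 with all FaDu replicates. The cause was not tested. With RLE size factors and with untreated cells as control of EpEX, no count moved by over 1.5 times. DESeq2 called more genes in all as well, at 6 h 673 against 391 by edgeR with EGFhigh. With EGFhigh+EpEX at 6 h it called 1112 against 694. For the other settings the number of all genes called is not given here. The added calls are therefore not read as particular to the members.

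When single libraries were left out, the counts of called members in Kyse30 ranged from 0 to 2 for EGFlow, 0 to 1 for EGFhigh and 0 to 2 for EGFhigh+EpEX at 6 h, from 0 to 2 for Fc and 0 to 1 for untreated cells from 6 to 72 h, and from 2 to 4 for EGFhigh+EpEX against EGFhigh at 72 h. Same-numbered libraries of different groups had weakly correlated deviations (mean r = 0.0633 in Kyse30, where 64 of 217 pairs were over 0.1, and 0.0713 in FaDu, 14 of 42). Libraries of different numbers had a mean r of -0.0216 in Kyse30. Not every pair of equal number was over 0.1, the limit set for treating equal numbers as pairs, so the reported fits left the number out. That does not show that libraries of equal number are unrelated. In a fit with a replicate block, the count rose to 2 for EGFhigh at 6 h (SPRR1B, log2FC 1.47, adjusted p = 0.0118) and to 3 for EGFhigh+EpEX at 6 h (SPRR1B 0.0195, SPRR3 0.00118), and moved no other count by over 1.5 times.

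Counts were at or under the floor of 3 in 42 of 43 Kyse30 libraries for PI3, 31 for TGM1, 32 for SPRR2E, 30 for SPRR2D and 16 for SPRR1A, and in 13 of 20 FaDu libraries for SPRR1A. The cause was not tested.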
